A study of Mus musculus with 9 samples.

Results

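Hox genes encode homeodomain transcription factors, and 38 of them, from the 4 Hox clusters of the mouse, were followed through all 9 arrays of the series. They were taken by name, as every gene of a list of Hox cluster genes, with no threshold on any value. They are 38 of the 20422 genes measured, with 10 members in cluster A on chromosome 6, 10 in cluster B on chromosome 11, 9 in cluster C on chromosome 15 and 9 in cluster D on chromosome 2. In both comparisons against D-TF-iPSC, the cells made from tail-tip fibroblasts, cluster C had the most called members, with 8 of 9 lower in ME cells (8.78% of all genes were) and 8 of 9 lower in D-ME-iPSCs (6.45%), while cluster D had 1 of 9 in each. The difference between clusters was not tested.

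Each Hox cluster is a row of related genes that lie in the same order as the body levels in which they act. Genes at paralogue positions 1 to 3, here called anterior, act from the hindbrain to the neck. Those at 4 to 8 (central) act in the neck and trunk. Those at 9 to 13 (posterior) act from the thorax to the lumbar, tail and limb levels, so the levels of these blocks overlap. Polycomb proteins keep the silent genes of a cluster closed, trithorax proteins keep the active genes open, retinoic acid and Cdx proteins help to switch clusters on in the embryo, and Meis and Pbx proteins bind DNA beside the Hox proteins. Adult fibroblasts are known to keep a Hox pattern that tells their place in the body, and in the mouse Hoxc6, Hoxc8 and the group 9 genes Hoxa9, Hoxb9 and Hoxd9 take part in mammary gland formation.

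RNA was measured in 3 groups of 3 arrays. ME is a group of mammary epithelial (ME) cells freshly isolated from mice. D-ME-iPSC and D-TF-iPSC are induced pluripotent stem cells (iPSCs) from ME cells and from tail-tip fibroblasts (TFs), after a differentiation protocol of 2 steps, of 3 and 6 days, towards mammary epithelium. Per the study's methods the iPSCs carry retroviruses for Oct4, Sox2, Klf4 and c-Myc and a lentiviral EGFP reporter and were raised on embryonic fibroblast feeders, the TFs came from mice 2 months of age and the ME cells from virgin females of 2 and 6 months, but no source used here says which age or which iPSC line lies behind an array. The design text calls the replicates biological, but nothing says whether they are separate animals, lines or cultures, so the p-values measure the spread between these arrays, which may be in part technical. D-TF-iPSC is the group that both other groups are set against, so the 2 comparisons share its arrays.

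The array labelled ME replicate 1 stood apart from its group. Over all genes it correlated 0.92 and 0.943 with the other ME arrays and 0.991 to 0.993 with the D-ME-iPSC arrays, while the D-ME-iPSC arrays correlated 0.995 to 0.996 among themselves and the D-TF-iPSC arrays 0.994 to 0.996. Results that involve ME are therefore also given without it. The labelled cell types were checked against defining markers. In all, 6 of 6 epithelial markers were higher than in D-TF-iPSC in both other groups, with mean log2 levels over the list of 11.4 to 11.9 in ME, 11.8 to 11.9 in D-ME-iPSC and 8.97 to 9.32 in D-TF-iPSC, and the 5 pluripotency markers averaged 5.98 to 6.19 over the 9 arrays with none called and 2 of 5 at an unadjusted limma p under 0.05 in ME.

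The values are log2 expression values, as the authors made them with RMA. A gene is the mean of its exon-level probe sets, and a difference is called when the limma p-value, adjusted over all 20422 genes (Benjamini-Hochberg), is under 0.05. An array has no true 0, and dim genes show compressed differences. Hox genes were dim: 6 of 38 had a mean above the median of all genes, 7.14, so small differences were hard to detect at these levels. The array median over the 38 members was 6.22 to 6.44 in the 6 ME and D-ME-iPSC arrays and 6.80 to 6.98 in the 3 D-TF-iPSC arrays, so the groups did not overlap on this measure.

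**Figure D1:**
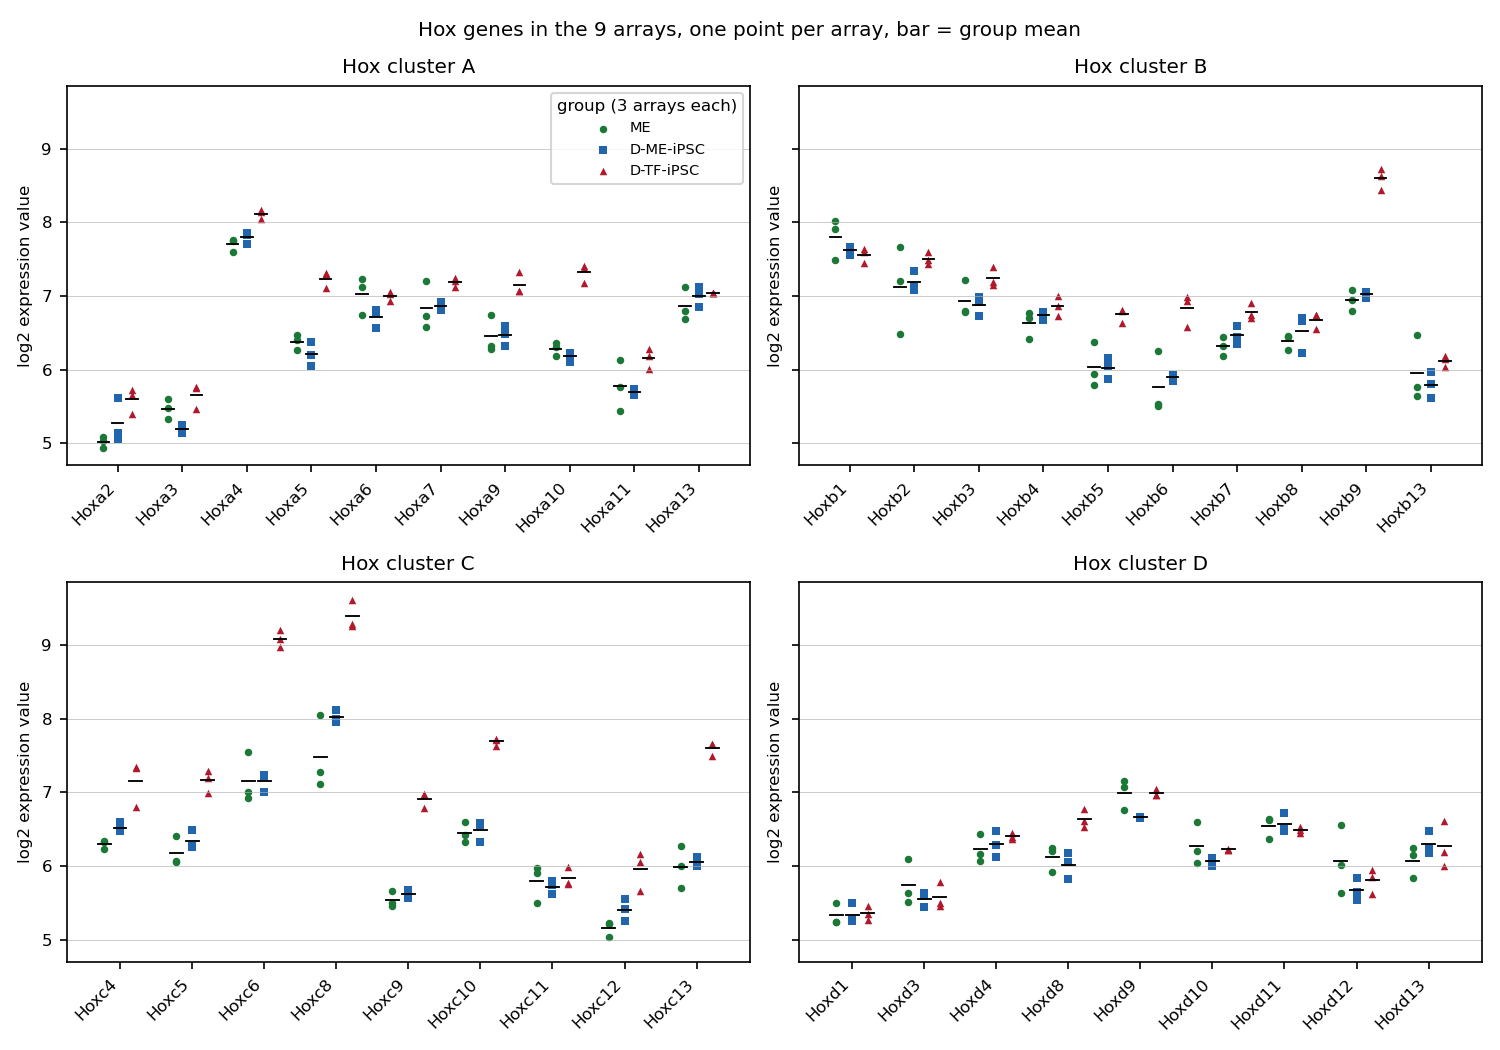
Log2 expression values (y axis) of the 38 Hox genes (x axis, by cluster and position) in each of the 9 arrays, with 1 point per array and a bar at the group mean. Hoxc6, Hoxc8, Hoxb9 and Hoxc13 show the D-TF-iPSC arrays clear of the other 6, and in most of cluster D the 3 groups lie together.

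Against D-TF-iPSC, 18 of 38 Hox genes were lower in ME cells and 0 were higher, where 8.78% of all genes were called lower and 7.5% higher. In D-ME-iPSC 16 of 38 were lower and 0 higher, beside 6.45% and 6.83% of all genes. At an unadjusted limma p under 0.05 the counts were 19 lower and 0 higher for ME (29.2% of all genes in either direction) and 21 lower and 0 higher for D-ME-iPSC (24.8%). The methods' t-test with adjustment called 7 and 19 lower and 0 higher, counts given without a share of all genes. In bulk RNA, fewer cells with a transcript and less of it per cell cannot be told apart. The median log2 difference over the members for ME was -0.38 and for D-ME-iPSC -0.32, where the median of all genes was 0.01 and -0.01. All 3 ME arrays lay below all 3 D-TF-iPSC arrays for 19 members, against 14.9% of all genes, and all 3 D-ME-iPSC arrays did so for 26, against 23.2%. No member had its arrays above those of D-TF-iPSC in either comparison, where 14.4% and 25.2% of all genes did.

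Most fibroblast and mesenchyme markers were also lower than in D-TF-iPSC. Between ME and D-ME-iPSC the median log2 difference was -0.39 for these markers and -0.03 for the Hox members. Of 6 such markers, among them Col1a1, Col1a2 and Vim, 6 were lower than in D-TF-iPSC in ME and 4 in D-ME-iPSC, with mean log2 levels over the list of 8.79 to 9.71 in ME, 9.74 to 9.80 in D-ME-iPSC and 11.1 to 11.2 in D-TF-iPSC. The blood markers averaged 7.06 to 9.38, 7.10 to 7.19 and 8.24 to 8.47, with 0 of 2 called, and the endothelial markers 7.34 to 8.61, 8.52 to 8.68 and 8.91 to 9.02, with 2 of 2 lower in ME and 0 of 2 in D-ME-iPSC. Without ME replicate 1, 6 of 6 fibroblast, 2 of 2 blood and 2 of 2 endothelial markers were lower in D-ME-iPSC. The part of these markers' cells in the Hox differences was not tested. When ME replicate 1 was left out, the 18 Hox calls in ME all remained and 2 members, Hoxb1 and Hoxd12, were called higher, beside 22.8% of all genes lower and 16.4% higher. The 16 calls in D-ME-iPSC also remained in that fit, which called 21, beside 12.8% lower and 15.5% higher. The added members were Hoxa4, Hoxa6, Hoxa11, Hoxb7 and Hoxd9, all lower. By cluster, 7 of 10 members were then lower in A, 4 of 10 in B, 8 of 9 in C and 2 of 9 in D. The D-ME-iPSC count dropped to 9 without D-ME-iPSC replicate 1 and to 9 without replicate 3.

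**Figure D2:**
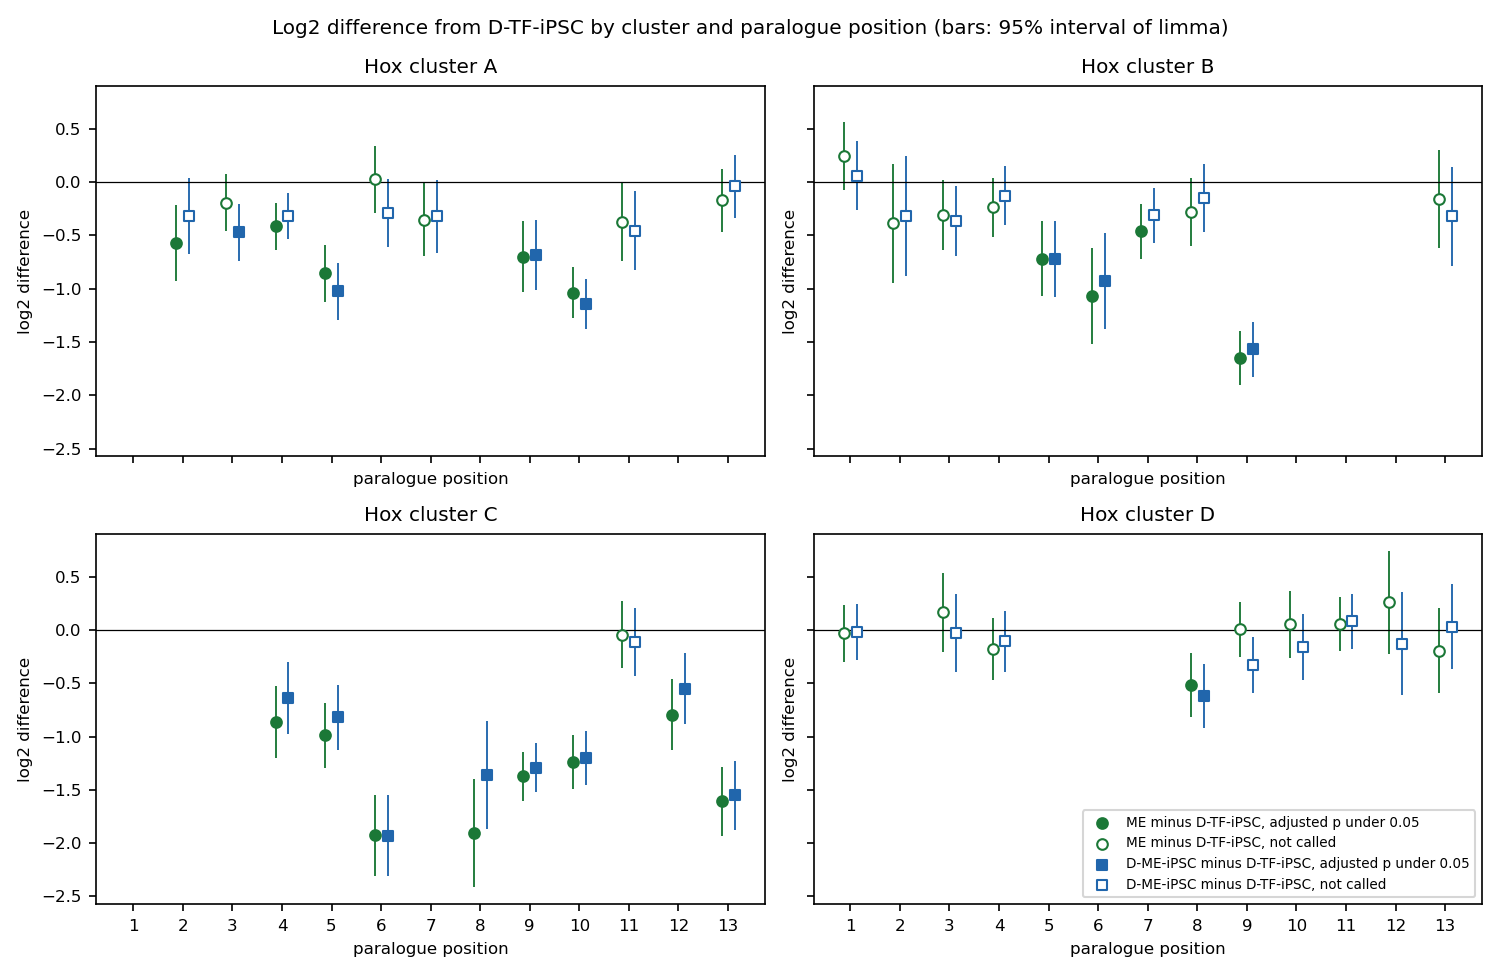
Log2 difference from D-TF-iPSC (y axis) by paralogue position (x axis) in each cluster, for ME (circles) and D-ME-iPSC (squares), with the 95% interval of the limma fit and filled symbols for called members. Cluster C has a called member at every position shown except 11, and cluster D only at position 8.

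By position, the anterior members had 1 of 7 lower in ME and 1 of 7 in D-ME-iPSC, the central members 10 and 8 of 15, and the posterior members 7 and 7 of 16, beside 8.78% and 6.45% of all genes. The anterior count is a single gene in each comparison, and the difference between positions was not tested. Position 5 had all of its 3 members lower in both comparisons, with median log2 differences of -0.86 and -0.82. Position 9 had 3 of 4, all but Hoxd9, with medians of -1.04 and -0.99. Position 11 had 0 of 3 in each, with medians of -0.04 and -0.12, and at an unadjusted limma p only Hoxa11 passed, in D-ME-iPSC.

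The promoters of some called members are shown so that genes that were lower together can be compared at their start sites. Windows were lacking for Hoxb5, Hoxb6, Hoxb9 and every called member of cluster C except Hoxc4. The RefSeq promoter table (build GRCm38.p6) holds 24 windows for 22 of the 38 members, and the 250 bases before the start are printed for Hoxa5, Hoxa9, Hoxa10, Hoxc4 and Hoxd8, the genes called in each comparison that the table holds. Each is written 5′ to 3′ on the gene's strand, and capitals mark matches, on either strand, to 6 motifs. These are the TATA box as TATAAA, the box bound by nuclear factor Y as CCAAT, the joint Pbx and Hox site as TGATTNAT, the Meis site as TGACAG, the posterior Hox and Cdx site as TTTATG, and AGGTCA (a single arm of the site that retinoic acid receptors and other nuclear receptors bind).
Hoxa5, chr6:52204588-52204837, strand -: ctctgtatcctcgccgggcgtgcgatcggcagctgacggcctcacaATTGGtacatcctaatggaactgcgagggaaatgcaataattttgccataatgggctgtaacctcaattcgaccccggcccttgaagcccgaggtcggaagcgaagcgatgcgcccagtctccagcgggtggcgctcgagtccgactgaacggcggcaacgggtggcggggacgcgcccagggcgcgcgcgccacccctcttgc
Hoxa9, chr6:52227371-52227620, strand -: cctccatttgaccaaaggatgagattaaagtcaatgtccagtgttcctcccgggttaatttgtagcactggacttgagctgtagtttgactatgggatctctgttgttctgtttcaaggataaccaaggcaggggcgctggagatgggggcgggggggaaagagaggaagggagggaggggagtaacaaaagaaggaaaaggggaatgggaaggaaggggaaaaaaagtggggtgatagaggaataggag
Hoxa10, start at the lower coordinate, chr6:52234940-52235189, strand -: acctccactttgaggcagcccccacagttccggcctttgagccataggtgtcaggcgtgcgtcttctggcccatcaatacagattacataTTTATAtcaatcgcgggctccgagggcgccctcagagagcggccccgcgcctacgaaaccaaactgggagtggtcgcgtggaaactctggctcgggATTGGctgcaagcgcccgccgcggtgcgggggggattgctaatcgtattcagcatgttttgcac
Hoxa10, start at the higher coordinate, chr6:52240855-52241104, strand -: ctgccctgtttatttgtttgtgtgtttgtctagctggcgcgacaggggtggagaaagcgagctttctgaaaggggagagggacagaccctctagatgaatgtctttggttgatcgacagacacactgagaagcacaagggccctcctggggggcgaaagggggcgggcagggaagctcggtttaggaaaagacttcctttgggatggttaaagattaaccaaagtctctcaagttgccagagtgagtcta
Hoxc4, chr15:103034145-103034394, strand +: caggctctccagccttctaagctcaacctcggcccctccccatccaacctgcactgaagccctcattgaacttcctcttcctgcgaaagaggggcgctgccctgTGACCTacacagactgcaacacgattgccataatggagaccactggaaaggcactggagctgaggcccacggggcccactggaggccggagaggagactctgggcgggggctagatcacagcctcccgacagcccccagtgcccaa
Hoxd8, chr2:74704365-74704614, strand +: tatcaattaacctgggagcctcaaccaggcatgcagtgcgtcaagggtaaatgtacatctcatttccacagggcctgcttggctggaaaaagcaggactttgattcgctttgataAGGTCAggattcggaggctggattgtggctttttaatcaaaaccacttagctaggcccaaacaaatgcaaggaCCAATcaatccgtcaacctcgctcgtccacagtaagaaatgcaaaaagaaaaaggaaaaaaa

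Among all 32851 windows of this length, the TATA box occurred in 12.4%, the nuclear factor Y box in 33.8%, the joint Pbx and Hox site in 2.82%, the Meis site in 15.9%, the posterior Hox and Cdx site in 10.8% and the nuclear receptor arm in 14.0%. Among the 24 Hox windows the counts were 4, 14, 2, 2, 5 and 6 in the same order. No motif holds another, although the TATA box read on the other strand and the posterior Hox and Cdx site differ in their last letter only. Hoxa10 held a TATA box and a nuclear factor Y box in 1 of its 2 windows, Hoxa5 a nuclear factor Y box, Hoxc4 a nuclear receptor arm and Hoxd8 a nuclear factor Y box and a nuclear receptor arm, and the Hoxa9 window held none of the 6. The windows ranged from 2 to 35 CG dinucleotides with a median of 12.5, where the median of all windows was 6, and the Hoxa5 window held 28 and that of Hoxa9 held 3. These are letter matches in a window, and nothing here measured binding.

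Cluster A had 5 of 10 members lower in ME and 4 of 10 in D-ME-iPSC, with median log2 differences of -0.39 and -0.39. Hoxa5, which is needed for lung formation in the mouse, measured 6.26, 6.47 and 6.40 in ME replicates 1, 2 and 3, 6.05, 6.20 and 6.37 in the D-ME-iPSC arrays and 7.30, 7.10 and 7.29 in the D-TF-iPSC arrays. All 6 ME and D-ME-iPSC arrays lay below the lowest D-TF-iPSC array. The mean was lower in ME by 1.81-fold (log2 difference -0.86, SE 0.12, adjusted p = 0.00137) and in D-ME-iPSC by 2.04-fold (log2 difference -1.03, SE 0.12, adjusted p = 0.000569). Hoxa10, a regulator of uterine and lumbar patterning, measured 6.18, 6.36 and 6.31 in ME replicates 1, 2 and 3, 6.10, 6.22 and 6.22 in the D-ME-iPSC arrays and 7.17, 7.41 and 7.39 in the D-TF-iPSC arrays. Again the 6 arrays all lay below the D-TF-iPSC arrays. Its mean was lower in ME by 2.05-fold (log2 difference -1.04, SE 0.11, adjusted p = 0.000261) and in D-ME-iPSC by 2.21-fold (log2 difference -1.14, SE 0.11, adjusted p = 0.00017). Hoxa9, a group 9 gene with roles in blood stem cells and, with its paralogues, in the mammary gland, measured 6.28, 6.74 and 6.33 in ME replicates 1, 2 and 3, 6.48, 6.59 and 6.33 in the D-ME-iPSC arrays and 7.06, 7.07 and 7.32 in the D-TF-iPSC arrays. The D-TF-iPSC arrays were the 3 highest. Hoxa9's mean was lower in ME by 1.62-fold (log2 difference -0.70, SE 0.15, adjusted p = 0.0118) and in D-ME-iPSC by 1.61-fold (log2 difference -0.68, SE 0.15, adjusted p = 0.0148).

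Hoxa2, Hoxa3 and Hoxa4 were each called in 1 of the 2 comparisons, and whether the comparisons differ in these genes was not tested. Hoxa2, which patterns the hindbrain and the second branchial arch, measured 5.03, 4.94 and 5.09 in ME replicates 1, 2 and 3, 5.14, 5.06 and 5.62 in the D-ME-iPSC arrays and 5.73, 5.40 and 5.66 in the D-TF-iPSC arrays. The ME arrays lay below those of D-TF-iPSC, while D-ME-iPSC replicate 3 lay among them. In that array 1 dim probe set of the 4 of Hoxa2 measured 5.72, against 3.48 and 3.52 in D-ME-iPSC replicates 1 and 2. The difference was called in ME, at 1.49-fold (log2 difference -0.58, SE 0.16, adjusted p = 0.0374), and in D-ME-iPSC it was 1.25-fold (log2 difference -0.32, SE 0.16, adjusted p = 0.257). Hoxa3, which is needed for the thymus and parathyroid, measured 5.47, 5.33 and 5.60 in ME replicates 1, 2 and 3, 5.26, 5.18 and 5.14 in the D-ME-iPSC arrays and 5.77, 5.75 and 5.47 in the D-TF-iPSC arrays. Here the D-ME-iPSC arrays were the lowest and those of ME overlapped D-TF-iPSC. Hoxa3 was called in D-ME-iPSC, at 1.39-fold (log2 difference -0.47, SE 0.12, adjusted p = 0.0285), and in ME the difference was 1.14-fold (log2 difference -0.19, SE 0.12, adjusted p = 0.328). Hoxa4, which patterns neck vertebrae, measured 7.60, 7.77 and 7.74 in ME replicates 1, 2 and 3, 7.86, 7.83 and 7.70 in the D-ME-iPSC arrays and 8.16, 8.04 and 8.14 in the D-TF-iPSC arrays. Both other groups lay below the D-TF-iPSC arrays. Hoxa4 was called in ME, at 1.33-fold (log2 difference -0.41, SE 0.10, adjusted p = 0.019), and in D-ME-iPSC the difference was 1.25-fold (log2 difference -0.32, SE 0.10, adjusted p = 0.0642). In ME, Hoxa2 lost its call without any 1 of 6 arrays (adjusted p up to 0.139, without D-TF-iPSC replicate 1), Hoxa4 without any 1 of the D-TF-iPSC arrays (up to 0.083) and Hoxa9 without D-TF-iPSC replicate 3 (0.0569). In D-ME-iPSC, Hoxa3 lost it without any of 5 arrays (up to 0.122) and Hoxa9 without any of 3 (up to 0.0721). Hoxa4 also lost it with quantile normalization (adjusted p = 0.0525) and median centring (0.0625), and on its brightest probe set alone the sign turned, to 0.13. The members not called in either comparison were Hoxa6, Hoxa7, Hoxa11 and Hoxa13, with log2 differences of -0.37 to 0.03 in ME and -0.45 to -0.04 in D-ME-iPSC. In the fit without ME replicate 1, Hoxa4, Hoxa6 and Hoxa11 were called lower in D-ME-iPSC (adjusted p = 0.0149, 0.0417 and 0.013).

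Cluster B had 4 of 10 lower in ME and 3 of 10 in D-ME-iPSC, with medians of -0.35 and -0.32. Hoxb9, which patterns the ribs and, with Hoxa9 and Hoxd9, the mammary gland of the mouse, measured 6.80, 7.08 and 6.95 in ME replicates 1, 2 and 3, 7.05, 6.97 and 7.05 in the D-ME-iPSC arrays and 8.44, 8.63 and 8.72 in the D-TF-iPSC arrays. The D-TF-iPSC arrays stood well above every other array. The mean was lower in ME by 3.14-fold (log2 difference -1.65, SE 0.11, adjusted p = 3.19e-05) and in D-ME-iPSC by 2.97-fold (log2 difference -1.57, SE 0.11, adjusted p = 4.22e-05). Hoxb6, a trunk gene, measured 5.51, 6.25 and 5.53 in ME replicates 1, 2 and 3, 5.84, 5.93 and 5.93 in the D-ME-iPSC arrays and 6.99, 6.58 and 6.93 in the D-TF-iPSC arrays. The 3 D-TF-iPSC arrays were the highest, with ME replicate 2 the nearest to them. Hoxb6's mean was lower in ME by 2.10-fold (log2 difference -1.07, SE 0.20, adjusted p = 0.0066) and in D-ME-iPSC by 1.91-fold (log2 difference -0.93, SE 0.20, adjusted p = 0.0146). Hoxb5, which helps to place the shoulder girdle, measured 5.94, 5.79 and 6.37 in ME replicates 1, 2 and 3, 6.05, 6.16 and 5.87 in the D-ME-iPSC arrays and 6.63, 6.80 and 6.82 in the D-TF-iPSC arrays. All ME and D-ME-iPSC arrays were below the D-TF-iPSC arrays, with ME replicate 3 the nearest. Hoxb5's mean was lower in ME by 1.64-fold (log2 difference -0.72, SE 0.16, adjusted p = 0.0139) and in D-ME-iPSC by 1.65-fold (log2 difference -0.72, SE 0.16, adjusted p = 0.0156). Hoxb7, known from the collecting duct system of the kidney, measured 6.18, 6.44 and 6.32 in ME replicates 1, 2 and 3, 6.60, 6.45 and 6.35 in the D-ME-iPSC arrays and 6.74, 6.69 and 6.90 in the D-TF-iPSC arrays. The groups did not overlap with D-TF-iPSC here either. Hoxb7 was called in ME, at 1.38-fold (log2 difference -0.46, SE 0.11, adjusted p = 0.0238), and in D-ME-iPSC the difference was 1.24-fold (log2 difference -0.31, SE 0.11, adjusted p = 0.12). Hoxb7 lost the call without ME replicate 3 or any D-TF-iPSC array (adjusted p up to 0.103), Hoxb5 without D-TF-iPSC replicate 2 or 3 in ME (up to 0.0615) and without any of 4 arrays in D-ME-iPSC (up to 0.0742), and Hoxb6 without any of 5 arrays in D-ME-iPSC (up to 0.0667). Hoxb7 also lost it with median centring.

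The remaining members of cluster B were Hoxb1, Hoxb2, Hoxb3, Hoxb4, Hoxb8 and Hoxb13, a gene of the prostate and the tail end. Their log2 differences were -0.39 to 0.24 in ME and -0.37 to 0.06 in D-ME-iPSC, and none was called. Hoxb1, a marker of the fourth hindbrain segment, had values of 8.02 and 7.91 in ME replicates 2 and 3, while replicate 1 was 7.48, within the 7.45 to 7.63 of D-TF-iPSC. In the fit without ME replicate 1 it was called higher in ME, with a log2 difference of 0.41 (SE 0.09, adjusted p = 0.00727).

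Cluster C had 8 of 9 members called in each comparison against D-TF-iPSC, with median log2 differences of -1.24 in ME and -1.21 in D-ME-iPSC. Hoxc6, a thoracic gene that takes part in mammary growth in the mouse, measured 7.55, 7.00 and 6.92 in ME replicates 1, 2 and 3, 7.21, 7.00 and 7.24 in the D-ME-iPSC arrays and 9.08, 9.20 and 8.97 in the D-TF-iPSC arrays. No ME or D-ME-iPSC array came near the D-TF-iPSC arrays, and ME replicate 1 was the highest of the 6. The mean was lower in ME by 3.80-fold (log2 difference -1.93, SE 0.17, adjusted p = 0.000113) and in D-ME-iPSC by 3.81-fold (log2 difference -1.93, SE 0.17, adjusted p = 0.000129). Hoxc8, a thoracic gene that acts in the thoracic mammary placodes of the mouse, measured 8.06, 7.11 and 7.28 in ME replicates 1, 2 and 3, 8.00, 8.12 and 7.95 in the D-ME-iPSC arrays and 9.61, 9.29 and 9.26 in the D-TF-iPSC arrays. ME replicates 2 and 3 were the lowest arrays and ME replicate 1 lay with D-ME-iPSC. Hoxc8's mean was lower in ME by 3.75-fold (log2 difference -1.91, SE 0.23, adjusted p = 0.00062) and in D-ME-iPSC by 2.57-fold (log2 difference -1.36, SE 0.23, adjusted p = 0.00398). Without ME replicate 1 the log2 differences of ME were -2.12 (SE 0.11) for Hoxc6 and -2.19 (SE 0.12) for Hoxc8.

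The posterior members of cluster C were lower as well, with Hoxc11 as the exception. Hoxc13, which controls hair and nail keratins and acts in the tail, measured 6.01, 6.27 and 5.70 in ME replicates 1, 2 and 3, 6.13, 6.02 and 6.00 in the D-ME-iPSC arrays and 7.65, 7.66 and 7.50 in the D-TF-iPSC arrays. The D-TF-iPSC arrays were clear of all others. The mean was lower in ME by 3.05-fold (log2 difference -1.61, SE 0.14, adjusted p = 0.000129) and in D-ME-iPSC by 2.93-fold (log2 difference -1.55, SE 0.14, adjusted p = 0.000173). Hoxc9, a gene of the lower thorax, measured 5.50, 5.46 and 5.66 in ME replicates 1, 2 and 3, 5.68, 5.57 and 5.62 in the D-ME-iPSC arrays and 6.97, 6.79 and 6.98 in the D-TF-iPSC arrays. The ME and D-ME-iPSC arrays together spanned 5.46 to 5.68, below every D-TF-iPSC array. Hoxc9's mean was lower in ME by 2.59-fold (log2 difference -1.37, SE 0.10, adjusted p = 4.64e-05) and in D-ME-iPSC by 2.45-fold (log2 difference -1.29, SE 0.10, adjusted p = 6.97e-05). Hoxc10, a lumbar and hindlimb gene, measured 6.60, 6.42 and 6.33 in ME replicates 1, 2 and 3, 6.58, 6.55 and 6.33 in the D-ME-iPSC arrays and 7.72, 7.73 and 7.63 in the D-TF-iPSC arrays. All 6 arrays were below those of D-TF-iPSC. Hoxc10's mean was lower in ME by 2.36-fold (log2 difference -1.24, SE 0.11, adjusted p = 0.000138) and in D-ME-iPSC by 2.31-fold (log2 difference -1.21, SE 0.11, adjusted p = 0.000185). Hoxc12, a neighbour of Hoxc13, measured 5.04, 5.23 and 5.22 in ME replicates 1, 2 and 3, 5.55, 5.42 and 5.25 in the D-ME-iPSC arrays and 5.66, 6.16 and 6.05 in the D-TF-iPSC arrays. D-ME-iPSC replicate 1 came nearest to the lowest D-TF-iPSC array. Hoxc12's mean was lower in ME by 1.74-fold (log2 difference -0.80, SE 0.15, adjusted p = 0.00638) and in D-ME-iPSC by 1.46-fold (log2 difference -0.55, SE 0.15, adjusted p = 0.0386). Hoxc11 measured 5.50 to 5.97 in ME, 5.62 to 5.80 in D-ME-iPSC and 5.76 to 5.98 in D-TF-iPSC, and its log2 differences were -0.04 (SE 0.14, adjusted p = 0.882) and -0.12 (SE 0.14, adjusted p = 0.734).

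Hoxc4, an anterior trunk gene, measured 6.32, 6.23 and 6.34 in ME replicates 1, 2 and 3, 6.48, 6.49 and 6.60 in the D-ME-iPSC arrays and 7.34, 7.35 and 6.80 in the D-TF-iPSC arrays. The D-TF-iPSC arrays were the highest, although replicate 3 of that group was lower than the other two. The mean was lower in ME by 1.82-fold (log2 difference -0.86, SE 0.15, adjusted p = 0.00452) and in D-ME-iPSC by 1.56-fold (log2 difference -0.64, SE 0.15, adjusted p = 0.0214). Hoxc5, its neighbour, measured 6.41, 6.05 and 6.06 in ME replicates 1, 2 and 3, 6.27, 6.49 and 6.26 in the D-ME-iPSC arrays and 7.30, 7.19 and 7.00 in the D-TF-iPSC arrays. Again the groups did not overlap with D-TF-iPSC. Hoxc5's mean was lower in ME by 1.98-fold (log2 difference -0.99, SE 0.14, adjusted p = 0.00131) and in D-ME-iPSC by 1.76-fold (log2 difference -0.82, SE 0.14, adjusted p = 0.00395). In ME no call of cluster C was lost without any 1 of the 9 arrays. In D-ME-iPSC, Hoxc4 and Hoxc12 each lost theirs without any of 5 arrays (adjusted p up to 0.0965 and 0.158, both without D-TF-iPSC replicate 2), and the other 6 kept theirs.

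Cluster D had 1 of 9 members lower in each comparison, with median log2 differences of 0.00 in ME and -0.11 in D-ME-iPSC. Hoxd8, a trunk gene, measured 6.21, 6.24 and 5.93 in ME replicates 1, 2 and 3, 5.83, 6.18 and 6.06 in the D-ME-iPSC arrays and 6.53, 6.62 and 6.78 in the D-TF-iPSC arrays. All 6 ME and D-ME-iPSC arrays lay below the D-TF-iPSC arrays. The mean was lower in ME by 1.43-fold (log2 difference -0.52, SE 0.13, adjusted p = 0.0291) and in D-ME-iPSC by 1.54-fold (log2 difference -0.62, SE 0.13, adjusted p = 0.0148). This call was lost without any of 5 arrays in ME (adjusted p up to 0.119) and without any of 4 in D-ME-iPSC (up to 0.0736), and on its brightest probe set alone the sign turned, to 0.02 for ME and 0.16 for D-ME-iPSC. The other 8, Hoxd1, Hoxd3, Hoxd4 and the limb genes Hoxd9 to Hoxd13, had log2 differences of -0.19 to 0.26 in ME and -0.33 to 0.08 in D-ME-iPSC. Hoxd9, the group 9 gene of this cluster, measured 6.76, 7.15 and 7.08 in ME replicates 1, 2 and 3, 6.66, 6.67 and 6.67 in the D-ME-iPSC arrays and 7.05, 6.97 and 6.97 in the D-TF-iPSC arrays. The D-ME-iPSC arrays lay below those of D-TF-iPSC, and ME replicates 2 and 3 above them. Its log2 difference was 0.00 in ME (SE 0.12, adjusted p = 0.987) and -0.33 in D-ME-iPSC (SE 0.12, adjusted p = 0.105). Without ME replicate 1, Hoxd9 was called lower in D-ME-iPSC (SE 0.07, adjusted p = 0.00819).

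Each gene value averages several exon-level probe sets, 2 to 8 per member, and these did not move alike. Of the 147 Hox probe sets, 34 were lower in ME and 27 in D-ME-iPSC, beside 3.82% and 2.48% of all probe sets, and 0 were higher in either, beside 3.55% and 2.84%. All 3 probe sets of Hoxc6 were called in each comparison, and 5 and 4 of the 6 of Hoxb9. In Hoxa9 1 of 6 was called, with log2 differences of -3.04 for ME and -2.63 for D-ME-iPSC, and its values of 5.84 to 7.43 in the ME and D-ME-iPSC arrays stood against 9.68 to 9.88 in D-TF-iPSC, while its other 5 lay between -0.61 and 0.13 in ME. Hoxc13 had 1 probe set at -3.23 and -3.18, with 5.41 to 6.03 in ME and D-ME-iPSC and 8.51 to 9.21 in D-TF-iPSC, and another at -0.12 and -0.08. In Hoxa10 1 of 2 probe sets was called, at -1.97 and -2.32, and the other was at -0.11 and 0.04. These probe sets were named after their values were seen. With the brightest probe set of each gene in place of the mean, Hoxa2, Hoxa3, Hoxa4, Hoxa9, Hoxb5, Hoxb6, Hoxc4, Hoxc12 and Hoxd8 lost every call they had.

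Some called genes had no called probe set. These were Hoxa2 in ME (0 of 4), and Hoxa3 (0 of 3), Hoxb5 (0 of 4) and Hoxc4 (0 of 4) in D-ME-iPSC. Other genes that were not called had called probe sets. Hoxa7 had 2 of 8 lower in ME and 1 in D-ME-iPSC, Hoxa11 had 1 of 3 in each, and Hoxa13 had 1 of 6 in each, at -0.98 and -1.14, beside another at 0.26 and 1.15. A further 8 probe sets name a Hox gene together with another gene and are in no gene value. Of these, 1 that names Hoxb7 and Hoxb8 measured 6.88, 6.48 and 6.40 in the ME arrays, 6.59, 6.77 and 6.90 in those of D-ME-iPSC and 8.09, 8.30 and 7.88 in D-TF-iPSC, with log2 differences of -1.50 (adjusted p = 0.00402) and -1.33 (adjusted p = 0.00785) in the fit over probe sets. It cannot be assigned to either gene. In RefSeq, 10 members overlap another member on the genome, among them Hoxa3 with Hoxa4, Hoxa5 and Hoxa6, so transcripts that run through several genes cannot be told apart from those of 1 gene there.

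**Figure D3:**
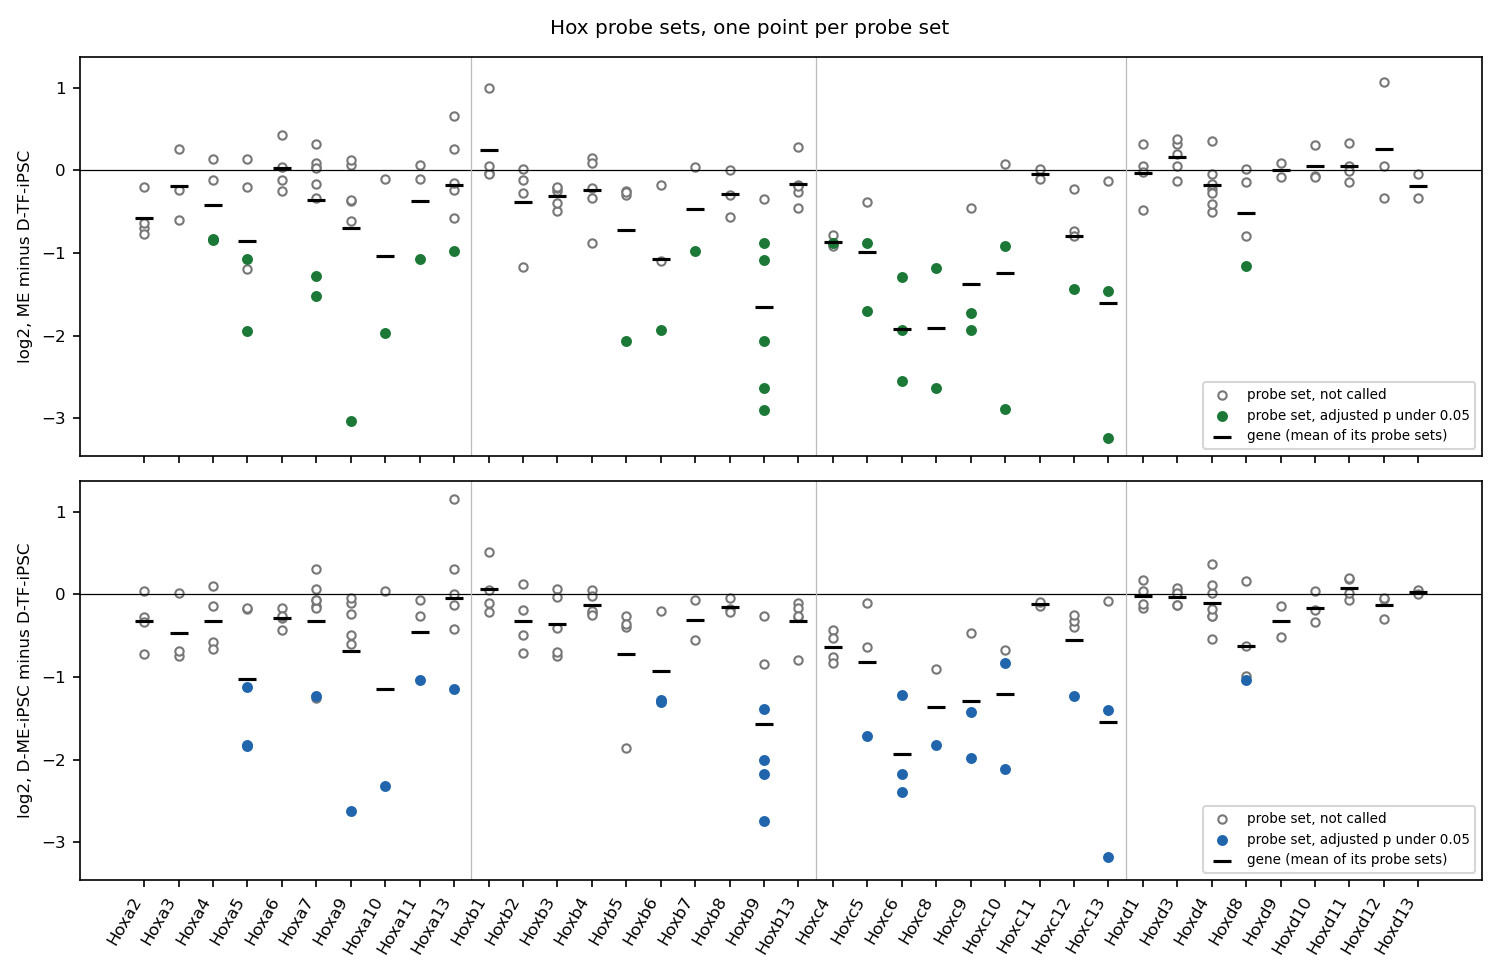
Log2 difference from D-TF-iPSC (y axis) of each of the 147 Hox probe sets, by gene (x axis), for ME (top) and D-ME-iPSC (bottom), with called probe sets filled and a bar at the gene value. In Hoxa9, Hoxa10, Hoxb5, Hoxc10 and Hoxc13 a single probe set lies far below the others of its gene.

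Between ME and D-ME-iPSC, the cells of the same origin fresh and after reprogramming and differentiation, 0 of 38 Hox genes were called, where 0% of all 20422 genes were. At an unadjusted limma p under 0.05, 3 members passed, Hoxc8 with a log2 difference of -0.54 (interval -1.05 to -0.04), Hoxa3 with 0.28 (interval 0.01 to 0.54) and Hoxd9 with 0.33, beside 18.9% of all genes, and the methods' t-test gave 2 unadjusted and 0 adjusted. All 3 ME arrays lay below all 3 D-ME-iPSC arrays for 2 members, Hoxc4 and Hoxc12 (5.96% of all genes), and above them for 2, Hoxa3 and Hoxd9 (8.11%). The median over the members was -0.03. For Hoxc6 the 95% interval of the difference was -0.37 to 0.38 and for Hoxb9 -0.33 to 0.18, which does not show that the groups are alike. This comparison depended on ME replicate 1. Without it 6 members were called, Hoxc8 lower in ME by a log2 difference of -0.83 (SE 0.12) and Hoxa6, Hoxb1, Hoxd9, Hoxd10 and Hoxd12 higher by 0.46, 0.34, 0.45, 0.33 and 0.61, beside 23.6% of all genes lower and 15.1% higher.

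**Figure D4:**
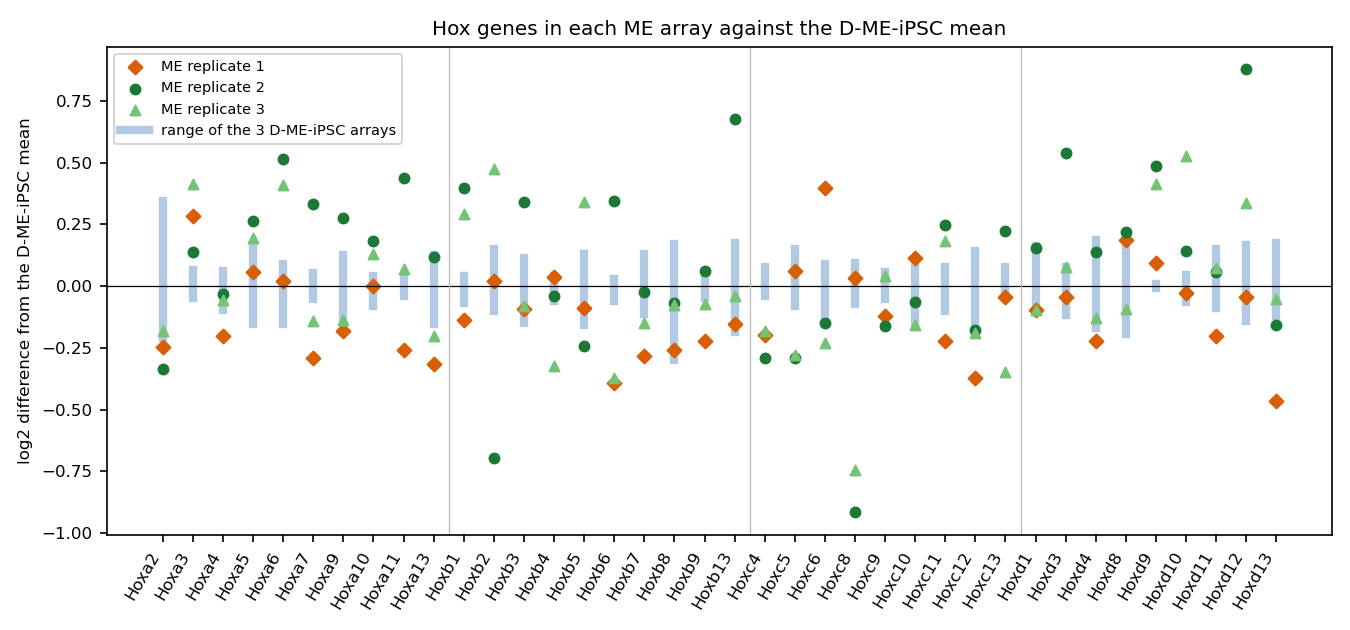
Difference of each ME array from the D-ME-iPSC mean (y axis, log2) for the 38 Hox genes (x axis), with bars for the range of the 3 D-ME-iPSC arrays. For Hoxc8, ME replicates 2 and 3 lie below the D-ME-iPSC range and replicate 1 lies in it.

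Lists of genes that work with or around the Hox clusters were measured in the same fit, and each count is read beside the background shares above. Of 8 Hox cofactors measured, 3 were lower in ME, 2 were lower in D-ME-iPSC, and 0 were higher at an adjusted or unadjusted p. Meis2, a Hox partner in limb and trunk, measured 7.80, 6.73 and 7.38 in the ME arrays, 7.12, 7.62 and 7.58 in those of D-ME-iPSC and 9.34, 9.28 and 9.23 in D-TF-iPSC, with log2 differences of -1.98 (SE 0.25, adjusted p = 0.000845) and -1.85 (SE 0.25, adjusted p = 0.00138), and the D-TF-iPSC arrays were clear of the others. Meis1 was lower in ME, at -1.39 (SE 0.32, adjusted p = 0.0185), and was at -0.96 in D-ME-iPSC (adjusted p = 0.0919). Pknox2 was lower in both, at -0.53 and -0.57 (SE 0.12 each, adjusted p = 0.0138 and 0.0117).

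Called Polycomb genes were all higher, where 7.5% of all genes were higher in ME and 6.83% in D-ME-iPSC. Of 15, 0 were lower in either comparison, 2 were higher in ME, Jarid2 at 0.73 and Rnf2 at 0.52, and 1 was higher in D-ME-iPSC, Ezh2, the H3K27 methyltransferase, at 0.73. At an unadjusted limma p, 0 were lower in each as well. In the fit without ME replicate 1, 7 of 15 were higher in ME, beside 16.4% of all genes, and 2 in D-ME-iPSC, beside 15.5%. A list of 9 genes held trithorax genes, the H3K27 demethylase genes Kdm6a and Kdm6b, and Dot1l, which encodes an H3K79 methyltransferase. Of these 9, 3 were higher in ME, Dot1l at 0.82, Kdm6a at 0.85 and Kdm6b at 0.89. In D-ME-iPSC 2 were higher, Dot1l at 0.54 and Wdr5 at 0.76. None was lower with adjustment, and 1 was at an unadjusted limma p in each. Without ME replicate 1, 5 were higher in D-ME-iPSC and 1 was lower in each comparison.

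Called retinoid genes were lower in ME, and in D-ME-iPSC some were lower and some higher. Aldh1a2, which makes retinoic acid in embryonic mesoderm, measured 7.13, 6.16 and 6.47 in the ME arrays, 7.30, 6.91 and 7.05 in those of D-ME-iPSC and 9.50, 9.60 and 9.62 in D-TF-iPSC, with log2 differences of -2.99 (SE 0.22, adjusted p = 4.75e-05) and -2.48 (SE 0.22, adjusted p = 0.000146). In all, 3 of 15 were lower in ME, with Dhrs3 at -1.28 and Crabp1 at -2.30, and 3 were lower in D-ME-iPSC, with Dhrs3 at -1.18 and Aldh1a1 at -1.95, while 2 were higher there, Aldh1a3 at 2.38 and Crabp2 at 1.28. Leaving out ME replicate 1, the counts were 5 lower and 0 higher in ME, and 3 lower and 4 higher in D-ME-iPSC. Of 8 Cdx and axial genes 1 was lower in ME, Gdf11 at -0.65, and 0 in D-ME-iPSC with limma at an adjusted or unadjusted p. Of 12 measured genes beside or inside the clusters 1 was lower in ME, Skap2, which lies beside cluster A, at -0.83. In D-ME-iPSC 0 were lower, with 1 at an unadjusted limma p. Without ME replicate 1, 4 were lower and 1 higher in ME, and 1 was lower in D-ME-iPSC.

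Positional genes outside the clusters lay on both sides. Of 34 measured, 9 were lower and 4 higher in ME, and 9 lower and 2 higher in D-ME-iPSC. Prrx1, a gene of limb mesenchyme, measured 10.17, 9.25 and 9.43 in ME, 10.08 in each D-ME-iPSC array and 11.08, 11.26 and 11.22 in D-TF-iPSC, with log2 differences of -1.57 and -1.10 (SE 0.21 each, adjusted p = 0.00106 and 0.00738). Emx2, a gene of the urogenital system, was lower, with -1.47 and -1.20, and so was Tbx15, with -1.01 and -1.38. Meox1, a somite gene, was called in ME only, at -1.46, and was at -0.58 in D-ME-iPSC, a difference in calls that was not tested. Irx3 and Irx5 were higher in both, at 1.31 and 1.26 in ME and 0.86 and 0.67 in D-ME-iPSC. Leaving out ME replicate 1, 9 were lower and 7 higher in ME, and 13 lower and 6 higher in D-ME-iPSC. In that fit 22.8% of all genes were lower and 16.4% higher in ME, and 12.8% and 15.5% in D-ME-iPSC.

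**Figure D5:**
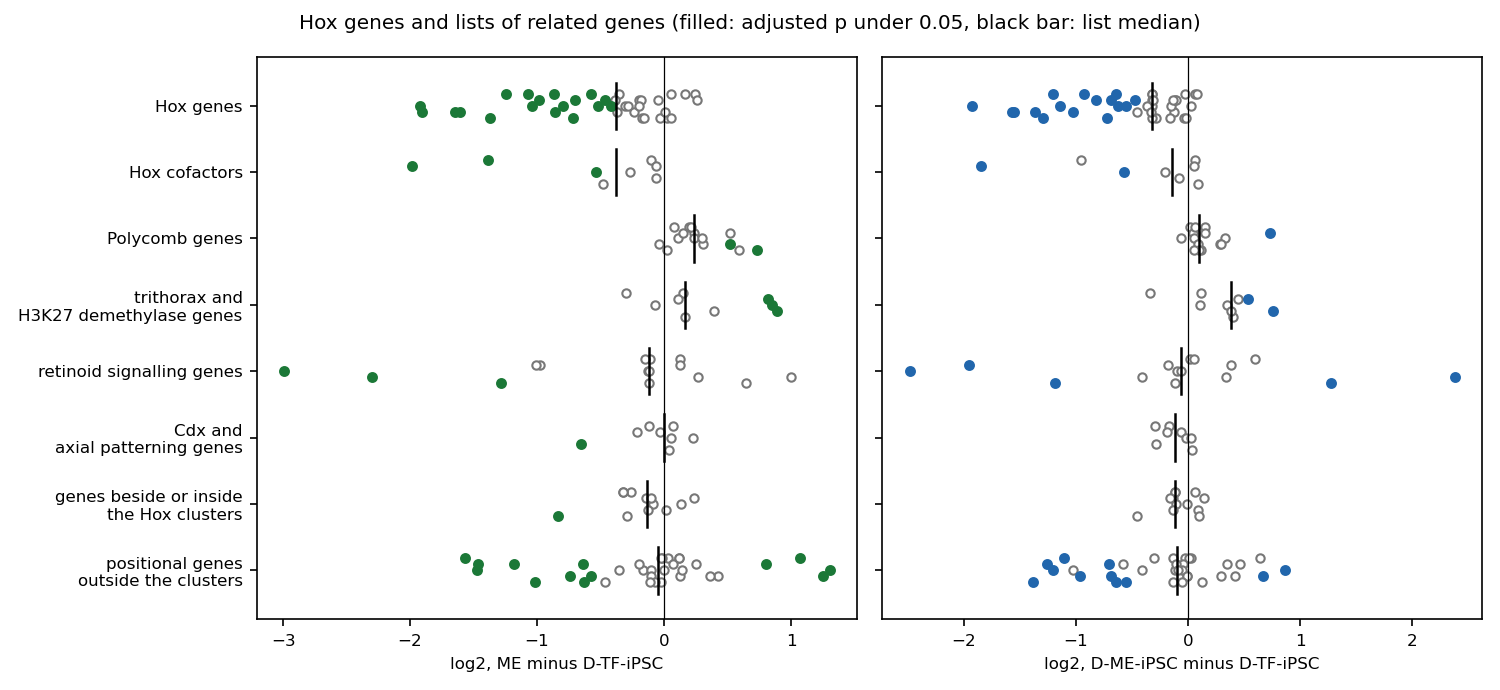
Log2 difference from D-TF-iPSC (x axis) of each Hox gene and of each gene of 7 related lists (y axis), for ME (left) and D-ME-iPSC (right), with called genes filled and a bar at each list's median. The Hox genes and their cofactors have their called members on the low side only. In ME the same holds for the retinoid list, the Cdx and axial list and the genes beside or inside the clusters.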

How the data were processed

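RNA of 9 arrays (Affymetrix Mo Gene 1.0 ST, biotin label, total RNA) was compared. The deposited log2 values per exon-level probe set were made by the authors with RMA and Partek, with background corrected and arrays normalized. No source used here gives versions, settings or the annotation's build. RMA at this level rests on few probes, so single probe sets are noisy. Groups came from the labels. Symbols were paired with 241576 probe sets through the platform annotation: 212138 had exactly 1 symbol, 4672 several and 24766 none. Probe sets with 1 symbol were averaged per gene (20422 genes, of which 17626 carry a current RefSeq symbol, median 8 probe sets).

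Differences were tested with limma 3.58.1 in R 4.3.3 (tables read with the data.table package, version 1.17.8), on all genes and all 9 arrays, with a mean for each group. The 3 contrasts were tested two-sided, adjusted over all genes and called at 0.05. Array medians were 7.45 to 7.61, and the number of arrays limits the precision. The fit was tested on simulated data with normal noise and the same spread in every group. That test does not cover an array that stands apart, as ME replicate 1 does. Members and lists were chosen with earlier results of these data known. Full values are given for members called in either comparison against D-TF-iPSC whose arrays lie apart from it, and up to 6 called genes of other lists. Alternatives were other scalings, probe set summaries, filters, spread models and tests, a replicate block, array weights and leaving out each array. Sequences are RefSeq's (GRCm38.p6). Figures used matplotlib 3.10.9.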

Additional observations from a re-analysis of the deposited data

How the results depend on the processing

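The called Hox differences, 34 in all over the 2 comparisons against D-TF-iPSC, had 687 values under the alternatives, of which 585 kept direction and call, 99 kept the direction only and 3 turned. Those 3 came from the brightest probe set alone, with log2 differences of 0.13 for Hoxa4 in ME, 0.0209 for Hoxd8 in ME and 0.16 for Hoxd8 in D-ME-iPSC. Hoxa5, Hoxa10, Hoxb9, Hoxc6, Hoxc9, Hoxc10 and Hoxc13 kept their calls in each setting run and in both comparisons.

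Counts of Hox calls against D-TF-iPSC were 18 for ME and 16 for D-ME-iPSC, and the third comparison, ME against D-ME-iPSC, gave 0. With only genes above the median level tested, which leaves 6 members, they were 4 and 3 for the first 2 comparisons. This filter used the mean over all 9 arrays, so high D-TF-iPSC values helped members to pass, and these counts are no separate support. Hoxb9 had group means of 6.95 in ME and 7.02 in D-ME-iPSC, under the cutoff of 7.14, and passed through its 8.59 in D-TF-iPSC. With the brightest probe set the counts were 10 and 10. The methods' t-test gave 7 for the first with adjustment and, without it, 26 for the second and 2 for the last. With only the 6 arrays compared, the second gave 25, while in the first Hoxa4, Hoxb5, Hoxb7 and Hoxd8 lost their calls. With the median of the probe sets, 24 of the 34 calls remained and 10 kept the direction only. Array weights, which gave ME replicate 1 a weight of 0.0658 and ME replicate 3 one of 8.98, gave 28 (25 lower, 3 higher), 25 and 16 (7 lower, 9 higher). For the filter, probe set, t-test, 6-array and weighted counts no share of all genes is given here. They are therefore not read as particular to the Hox genes. Without 1 array at a time the counts ranged from 12 to 20, from 9 to 21 and from 0 to 6, with the highest each time without ME replicate 1 (for the first, 20 also without ME replicate 2). In the second comparison ME arrays enter only through the spread that limma takes from all 9 arrays. For Hoxa10 its log2 difference was -1.14 with and without ME replicate 1, and the SE was 0.105 with it and 0.0898 without it. Why ME replicate 1 stood apart was not tested.

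Replicate numbers showed no pairing of the samples. For this, each gene's group mean was taken off and the deviations were correlated between arrays of different groups. Same-numbered arrays had correlations of deviations of -0.179 to 0.157 over 9 pairs, and arrays with different numbers -0.174 to 0.167. With the number as a replicate block the counts of Hox calls were 15, 14 and 0, also given without a share of all genes. The other background correction that was planned was not run, because the authors deposited corrected values. Quantile normalization moved the median difference of all genes by at most 0.04 and median centring by at most 0.07. Low signal limits the dim members, 32 of which lie under the median of all genes.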
